A study of Mus musculus with 2 samples.

Results

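The genes examined were the ion exchangers and cotransporters of 7 solute carrier families, Slc4, Slc8, Slc9, Slc12, Slc20, Slc26 and Slc34, which move sodium, protons, bicarbonate, chloride, calcium, sulfate and phosphate across membranes. They were chosen by symbol alone among the protein-coding genes of chromosomes 1 to 19 in the RefSeq GRCm38 table. This gave 45 genes out of 20665: 10 of Slc4, 3 of Slc8, 7 of Slc9, 9 of Slc12, 2 of Slc20, 11 of Slc26 and 3 of Slc34. The measurement was acRIP-seq of wild-type mouse whole uterus on gestational day 4, in which polyA RNA bearing N4-acetylcytidine (ac4C) are pulled down with an antibody. There was 1 immunoprecipitation library (whole uterus, ac4C immunoprecipitation) and 1 input library (whole uterus, input control), with no other genotype, treatment or day. The age of the animals and how many contributed tissue were not given in the sources used here. The data were 1 deposited list of 21192 peaks, and a gene held a peak when the summit of that peak lay in its span, introns included. No value below has a replicate check, and no test across samples was possible.

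Transport of these ions sets the volume and pH of the uterine luminal fluid, which is taken up by the epithelium around the time the embryo attaches. Members of Slc4 and Slc9 govern cell pH through bicarbonate and protons. The cotransporters of Slc12 carry chloride together with sodium or potassium and so govern cell volume, and the WNK kinases act on them. Slc8 proteins exchange sodium for calcium, Slc26 proteins move chloride, bicarbonate and sulfate, and Slc20 and Slc34 proteins bring phosphate in with sodium. ac4C is placed on cytidines by the acetyltransferase Nat10.

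Marker genes of the tissue were looked at first. A peak was held by 7 of 8 epithelial markers (not Epcam), 8 of 8 stromal markers, 6 of 6 myometrial markers and 3 of 4 endothelial markers (not Tek). Of 4 leukocyte markers, Cd68 held a peak and Ptprc, Adgre1 and Itgam did not. Over all autosomal protein-coding genes the share with a peak was 31.7%. The 1 of 4 leukocyte markers was near that share, and the other short lists stood above it. The list holds no transcript levels, so a gene without a peak may still be transcribed. In a whole tissue, fewer cells of a type and less RNA or less ac4C per cell cannot be told apart.

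The strongest peak of Slc4a4 (NCBI gene 54403), an electrogenic cotransporter of sodium and bicarbonate, lay just before an annotated start. RefSeq places 2 starts inside the Slc4a4 span on the plus strand of chromosome 5, at 88887260 and at 89027966. The strongest Slc4a4 peak, chr5:88886771-88887172, reached to within 88 bases of the first of these starts, and its summit lay 309 bases before that start. The peak thus covered no base of a transcript begun there. The gene span begins further upstream, at 88793858, and the list gave no strand. Which transcript or strand gave the fragments was not tested. Another Slc4a4 peak, chr5:89028120-89028331, had its summit 330 bases after the second start. The 33 member genes found in the RefSeq promoter table had 42 windows of 300 bases, from 250 bases before a start to 50 after it. Of the 42 windows, 1 was touched by a peak, that of the first Slc4a4 start. The share of all promoter windows touched by a peak is not given here, so this count has no background beside it. Peaks near an end of the span were not particular to Slc4a4. Slc12a2, which had no window, held its strongest summit 776 bases from an end of its span. A summit of Slc4a2 lay 314 bases inside the 5′ end of its span, outside the windows of that gene. The 163 bases shared by that window and the peak are printed below 5′ to 3′ on the strand of the gene. They run from 250 to 88 bases before the start and are the part of the window the peak covered. The same stretch is printed for the second Slc4a4 start and for 1 start each of Slc4a2 and Slc4a3, which held the most peaks of Slc4, for comparison. All are GRCm38.p6 plus-strand sequences from RefSeq, and capitals mark every match to CNN repeated 4 times (a C followed by any 2 bases) on the strand printed.
Slc4a4, chr5:88887010-88887172: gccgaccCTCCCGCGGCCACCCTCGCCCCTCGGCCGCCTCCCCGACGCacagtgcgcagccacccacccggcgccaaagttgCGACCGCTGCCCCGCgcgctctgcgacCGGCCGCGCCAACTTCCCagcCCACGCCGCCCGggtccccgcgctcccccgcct
Slc4a4, chr5:89027716-89027878: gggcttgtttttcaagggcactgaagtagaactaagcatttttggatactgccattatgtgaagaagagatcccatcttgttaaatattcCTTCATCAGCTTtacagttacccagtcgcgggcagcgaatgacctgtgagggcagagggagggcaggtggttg
Slc4a2, chr5:24424982-24425144: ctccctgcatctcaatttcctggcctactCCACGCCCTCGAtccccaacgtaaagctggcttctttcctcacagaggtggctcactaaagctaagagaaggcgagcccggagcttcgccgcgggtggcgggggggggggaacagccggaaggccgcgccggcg
Slc4a3, chr1:75546212-75546374: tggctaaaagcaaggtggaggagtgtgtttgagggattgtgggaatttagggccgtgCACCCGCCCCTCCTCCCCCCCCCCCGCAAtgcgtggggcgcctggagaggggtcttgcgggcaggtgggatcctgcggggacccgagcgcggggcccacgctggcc

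In the stretch under the peak, 90 of 163 bases (55.2%) were C and 131 (80.4%) were G or C. Among 20085 promoter windows of autosomal protein-coding genes, the same stretch had a median of 26.4% C, and 0.119% of the windows had at least the C share of Slc4a4. The repeat matched at 13 places on the strand printed, some of them overlapping, and at 0 places on the other strand. Either strand held a match in 73.0% of all windows, with a median of 1 match on the strand of the gene, and 1.24% of windows held at least as many there as Slc4a4. At the second Slc4a4 start the C share was 18.4%, with 1 match on each strand. At the Slc4a2 start printed, the C share was 33.1% with 1 match on the strand printed and 8 on the other. Another Slc4a2 start, not printed (chr5:24425594-24425756), had 34.4% C with 2 matches and 0, and Slc4a3 had 29.4% C with 10 matches and 1. The stretch was singled out after the peak was seen, and the matches are letters in a window, not sites of acetylation.

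Of the 45 genes, 16 held at least 1 peak (35.6%, 95% Wilson interval 23.2 to 50.2%), and 29 held none. Among all autosomal protein-coding genes the share was 31.7%, and among the 15689 genes whose span lay within the range of the members (5.37 to 561 kb) it was 36%. The share of the transporter genes was thus near the background. By family, peaks were held by 3 of 10 Slc4 genes (30.0%, interval 10.8 to 60.3%), 2 of 3 Slc8 genes (66.7%, 20.8 to 93.9%) and 3 of 7 Slc9 genes (42.9%, 15.8 to 74.95%). They were held by 4 of 9 Slc12 genes (44.4%, 18.9 to 73.3%), 1 of 2 Slc20 genes (50%, 9.45 to 90.5%), 3 of 11 Slc26 genes (27.3%, 9.75 to 56.6%) and 0 of 3 Slc34 genes (0%, up to 56.1%). The intervals of all 7 families contained the background share and overlapped each other, so no family stood apart at this size. Median span was 29.5 kb for the 16 genes holding a peak and 53.5 kb for the 29 others, while over all autosomal genes those with a peak were the longer ones (26.5 against 14.5 kb).

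**Figure D1:**
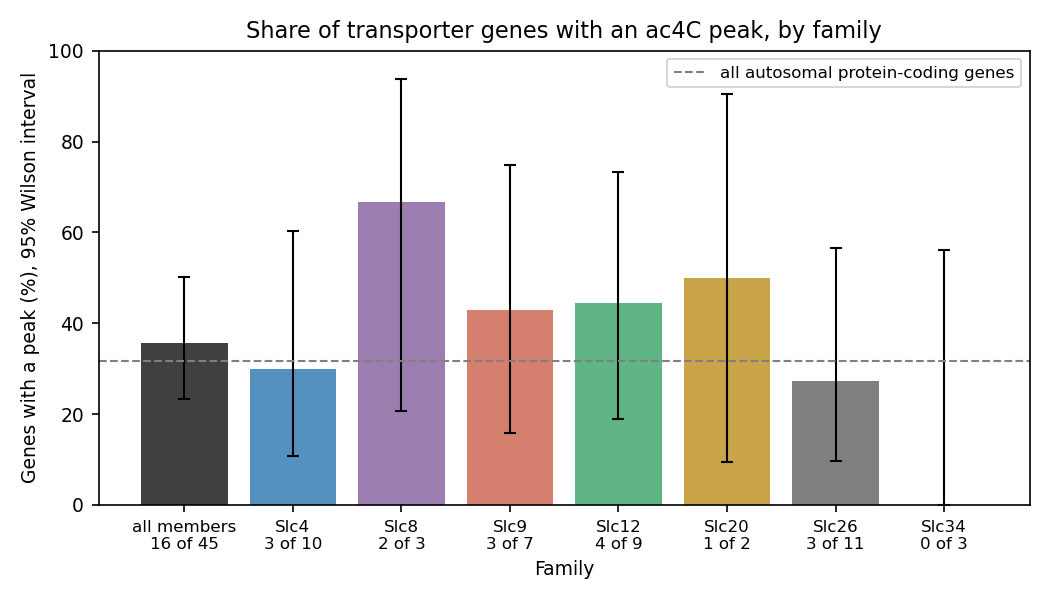
Bars give the percentage of genes with at least 1 ac4C peak, for all 45 genes (black) and for each family, whiskers the 95% Wilson interval, and the dashed line the 31.7% of all autosomal protein-coding genes. Every family's interval spans the dashed line, and Slc34 has no gene with a peak.

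The 16 genes held 64 peaks. Slc4 accounted for 22 of them (34.4%), Slc12 for 16 (25%), Slc9 for 13, Slc8 for 6, Slc26 for 5 and Slc20 for 2. Transporters of bicarbonate, protons and chloride in the Slc4, Slc9 and Slc12 families thus held 51 of the 64 peaks (79.7%) with 26 of the 45 genes. Per length of span this was 1.98 peaks per 100 kb, against 2.01 over all autosomal protein-coding genes, so the peak density of these families was near the background. At least 5 peaks were found in 6 genes (13.3%, interval 6.26 to 26.2%), against 6.01% of all autosomal genes and 7.72% of those with a span in the members' range. Among these 6 genes were Slc4a2 with 10 peaks, Slc4a3 with 9, Slc12a7 with 6, and Slc12a4 and Slc8a2 with 5 each. The background share lay inside the interval at the members' range of spans but just below it over all genes.

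The fold enrichment at a summit, the ratio given by the authors' peak caller, compares fragments in the immunoprecipitation plus 1 with the background plus 1. Its interval below is the 95% Poisson interval of the fragment number, which covers counting error of the immunoprecipitation only. The median fold enrichment at the highest peak was 7.52 over the 16 genes, from 4.08 in Slc9a5 to 19.02 in Slc12a2. Over the 6560 autosomal genes with a peak the median was 6.62 (interquartile range 5.08 to 9.06), and 9 of the 16 genes lay above it. A fold enrichment of 10 was reached by 3 of the 45 genes (6.67%), among them Slc12a2 and Slc4a4, against 6.07% of all autosomal genes. The interval of the highest Slc12a2 peak lay above those of 12 of the other genes and overlapped those of 3, among them Slc4a4 and Slc4a3.

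**Figure D2:**
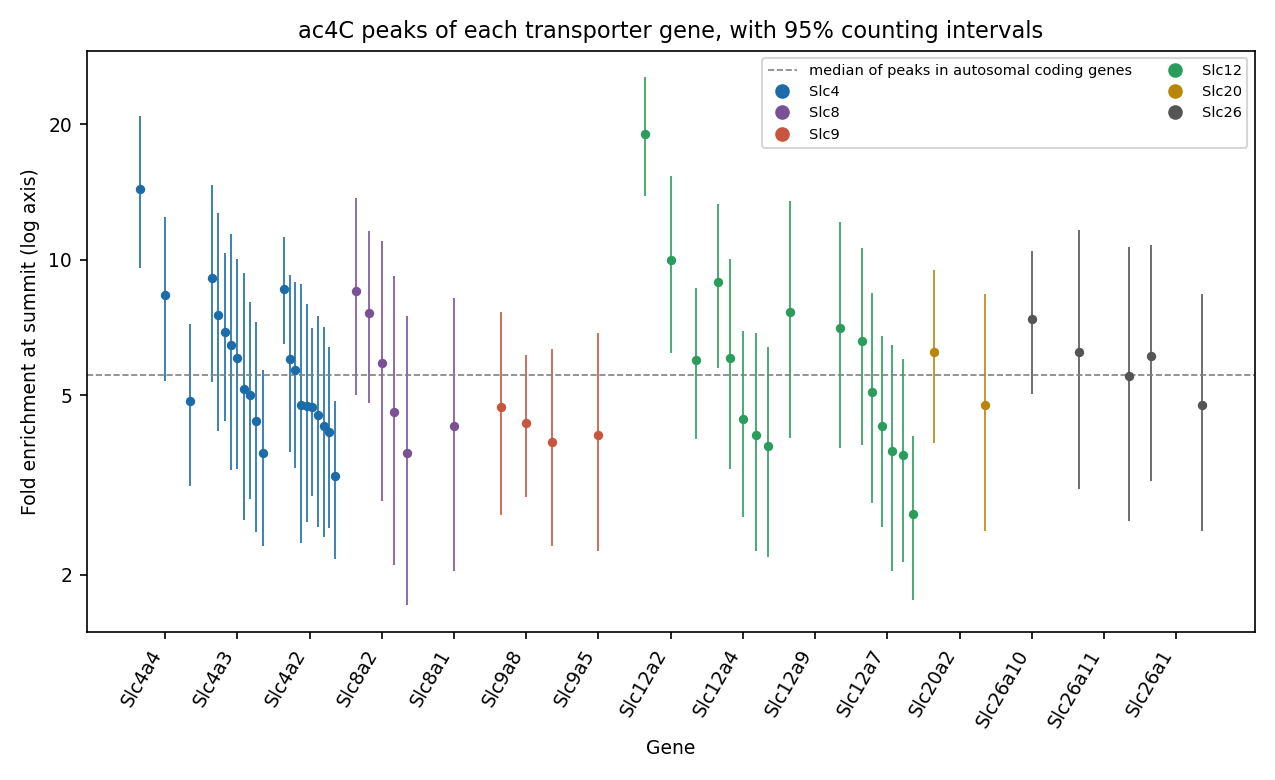
Each point is 1 peak of the genes described by name, grouped by gene and coloured by family, with its fold enrichment on a log axis and its 95% counting interval. Slc12a2 reaches 19.02 and Slc4a4 14.4, and the dashed line marks the median of 5.56 over peaks in autosomal coding genes.

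Slc4 genes with a peak were the chloride-bicarbonate exchangers Slc4a2 and Slc4a3 and the cotransporter Slc4a4. The 3 peaks of Slc4a4 had fold enrichments of 14.4 (9.59 to 20.8) on 26 fragments, 4.86 (3.15 to 7.19) on 23 and 8.36 (5.38 to 12.5) on 22. The interval of the middle peak lay below that of the first, while the background under it was higher, 3.94 fragments against 0.875. The 3 peaks were spread thinly, with gaps of 67483 and 73216 bases in a span of 446 kb (chr5:88793858-89239656).

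Slc4a2 (NCBI gene 20535), which is found in the basolateral membrane of many epithelia, held the most peaks of any member, and 4.50% of autosomal genes with a peak had 10 or more. They lay in a span of only 17.2 kb (chr5:24423761-24440947), or 5.82 peaks per 10 kb. The strongest, chr5:24429262-24430090, stood at 8.64 (6.51 to 11.2) and rested on 53 fragments, the most under any member peak. The other 9 ranged from 3.30 (2.16 to 4.85) to 6.02 (3.75 to 9.24), and 2 of the 10 had intervals below that of the strongest. The first peak lay 314 bases from the 5′ end of the span and the last 437 bases from the 3′ end, and 9 of the 10 lay at 34.7% of the span or beyond.

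Slc4a3 (NCBI gene 20536), the exchanger known from heart and brain, was the densest member, with 9 peaks in 13.4 kb (chr1:75546044-75559431), or 6.72 per 10 kb. Its highest peak, chr1:75556608-75556894, stood at 9.13 (5.36 to 14.7) on 15 fragments, and the lowest at 3.72 (2.31 to 5.70) on 19. None of its peaks had an interval below that of the highest. The widest Slc4a3 peak, chr1:75547088-75548339 with 1252 bases, was the one nearest the 5′ end and stood at 6.90 (4.39 to 10.4). No peak summit lay in Slc4a1, the anion exchanger of red blood cells, in the sodium bicarbonate transporters Slc4a5, Slc4a7, Slc4a8 and Slc4a10, or in Slc4a9 and Slc4a11.

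In Slc9, the sodium-proton exchangers, 3 genes held 13 peaks. Slc9a8 (NCBI gene 77031), an exchanger of the Golgi, held 3 of these, at 4.70 (2.71 to 7.68) on 14 fragments, 4.35 (2.98 to 6.15) on 30 and 3.94 (2.31 to 6.33) on 15. The first lay at 4.62% of the span from the 5′ end and the others at 89.97 and 95.1%, so the middle of the gene held none. Slc9a5 (NCBI gene 277973; chr8:105348156-105369881), best known from brain, held 1 at 4.08 (2.26 to 6.89) on 12 fragments. Its interval overlapped those of all 3 Slc9a8 peaks, so the genes were not set apart by their values. Genes of the family without a peak included the epithelial exchangers Slc9a2 and Slc9a3 and the endosomal exchanger Slc9a9, the longest member gene.

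In Slc12, the leading gene was Slc12a2 (NCBI gene 20496; chr18:57878512-57946821), which brings in sodium, potassium and chloride together and serves fluid secretion in many epithelia. It held the strongest member peak, which lay at chr18:57879129-57879627, stood at 19.02 (13.9 to 25.5) and rested on 43 fragments over a background of 1.31, and 1.84% of autosomal genes with a peak had a highest peak at least as strong. A second peak, 120 bases away and nearer the end of the span, stood at 10.01 (6.23 to 15.4) on 19 fragments. The third lay 16483 bases further on and stood at 5.998 (3.99 to 8.68) on 26 fragments, with an interval below that of the strongest. The summit of the strongest peak lay 776 bases from the end of lower coordinate and that of its neighbour 347 bases, so the strongest signal of the gene was at that end of it.

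Of the potassium-chloride cotransporters, which carry chloride out, Slc12a4 and Slc12a7 held peaks. The 5 peaks of Slc12a4 (NCBI gene 20498; chr8:105943590-105966149) ranged from 3.86 (2.18 to 6.41) to 8.93 (5.74 to 13.3). Slc12a7 (NCBI gene 20499; chr13:73733052-73816754) held 6 peaks, from 2.72 (1.75 to 4.06) to 6.62 (3.89 to 10.6), and no member peak stood lower than its weakest. All 6 peaks of Slc12a7 lay at 71.1% of the gene or beyond, counted from its 5′ end. Slc12a9 (NCBI gene 83704; chr5:137314558-137340070), a relative of these carriers, held 2 at 7.65 (4.03 to 13.5) and 7.06 (3.82 to 12.2), on only 10 and 11 fragments. Genes of the family without a summit included the kidney cotransporters Slc12a1 and Slc12a3 and the neuronal Slc12a5.

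Slc8a2 (NCBI gene 110891; chr7:16127592-16161063), a sodium-calcium exchanger described chiefly from brain, held 5 peaks, from 3.73 (1.71 to 7.50) on 6 fragments to 8.53 (5.01 to 13.7) on 15. The last 3 of them, with 8.53, 7.63 and 5.90, lay between 88.5 and 99.1% of the gene from its 5′ end. Slc8a1 (NCBI gene 20541), the exchanger of heart and smooth muscle, held a single peak at 4.27 (2.03 to 8.22) on 7 fragments in a span of 365 kb. The intervals of the highest peaks of Slc8a1 and Slc8a2 overlapped, so the values did not set the genes apart. Slc8a3, the remaining exchanger, held no peak.

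In Slc26, peaks were few and most of them shared a place with another gene. The 2 peaks of Slc26a1 (NCBI gene 231583), a sulfate transporter, stood at 4.76 (2.51 to 8.38) and 6.12 (3.23 to 10.8), and both summits also lay in Idua. The peak of Slc26a10 (NCBI gene 216441; chr10:127171612-127172240) stood at 7.38 (5.02 to 10.5) on 29 fragments, and its summit also lay in B4galnt1. The libraries were made with a directional kit, but the list gave no strand, so the fragments at these 3 summits could not be ascribed to 1 gene. Only Slc26a11 (NCBI gene 268512), a lysosomal and plasma membrane anion transporter, held peaks of its own, at 5.53 (2.64 to 10.7) and 6.26 (3.10 to 11.7) on 7 and 8 fragments. No summit lay in Slc26a2, Slc26a3, Slc26a4, Slc26a5, Slc26a6, Slc26a7, Slc26a8 or Slc26a9, which include the sulfate transporter of cartilage (Slc26a2), chloride-bicarbonate exchangers of epithelia (Slc26a3, Slc26a4 and Slc26a6) and the motor protein of hair cells (Slc26a5).

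Of the phosphate carriers, Slc20a2 (NCBI gene 20516; chr8:22476700-22569616), a widely expressed importer, held peaks at 4.76 (2.51 to 8.38) and 6.24 (3.93 to 9.48). Its relative Slc20a1 held none. Slc34a1, Slc34a2 and Slc34a3, the cotransporters of kidney and of intestinal and lung epithelium, held none either. Phosphate carriers together held peaks in 1 of 5 genes (20%, interval 3.62 to 62.4%), against 31.7% of all autosomal protein-coding genes. The interval contained that share, so these few genes do not show a lack of peaks.

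Where strand was known from the promoter table, peaks could be placed 5′ to 3′ along the span. This held for 12 of the 16 genes, with 48 peaks, and left out 4, among them Slc12a2, Slc20a2 and Slc26a11. The last 20% of the span held 19 of the 48 summits (39.6%) and the first 20% held 5 (10.4%). Over the 5223 autosomal genes with a peak and a known strand, the shares were 39.1 and 16.0%. Read without strand over all 64 peaks, 21 summits (32.8%, interval 22.6 to 45.0%) lay in the outermost 10% at either end of the span, against 36.3% for autosomal protein-coding genes. That interval treats the 64 peaks as independent, though they lay in 16 genes and some genes held many, so it may be too narrow. The placement of member peaks was near the background in both readings. Exons were not told from introns.

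**Figure D3:**
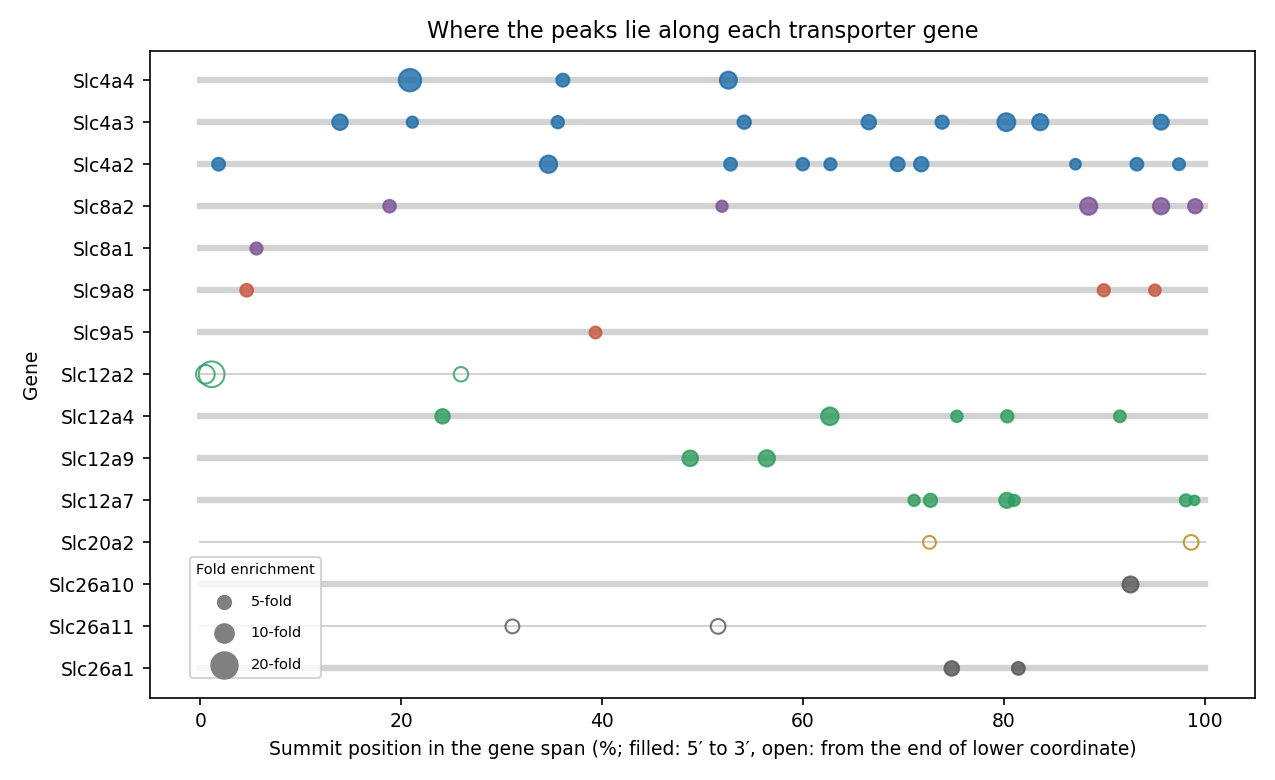
Summits of the peaks of the genes described by name, as a percentage of the gene span, with a row per gene, with marker area proportional to fold enrichment. Filled markers run 5′ to 3′ and open markers, for genes without a known strand, run from the end of lower coordinate. Slc4a3 holds peaks from 13.9 to 95.7% of its span and Slc12a7 at 71.1% or beyond.

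Promoter composition was compared for the member genes in the promoter table, taking for each gene the window richest in G and C. The 12 genes with a peak had a median of 62.2% G and C (48.3 to 80.0%) and the 21 without had 56.0% (39.3 to 73.0%). At least 60% was reached by 9 of the 12 and by 7 of the 21 (33.3%), against 66.1% of all autosomal genes with a peak and 32.3% of those without. The same order was seen over all autosomal genes, with medians of 63.7% for 5223 genes with a peak and 54.3% for 11234 without, so the difference was not particular to the transporters. Transcript abundance, which was not measured here, was not separated from it.

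The enrichment that peaks in the list reached differed with the background under them. Member peaks had a median background of 1.75 fragments and rested on a median of 15 fragments (6 to 53), against 2.63 and 22 for all peaks in autosomal genes. Where the background was between 1 and 2 fragments, the lowest fold enrichment in the whole list was 3.17, and where it was between 4 and 8 it was 2.25. These are the lowest values observed in each class and not a computed limit of detection. The 29 genes without a peak have no background value here, and the absence of enrichment in them was not shown.

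**Figure D4:**
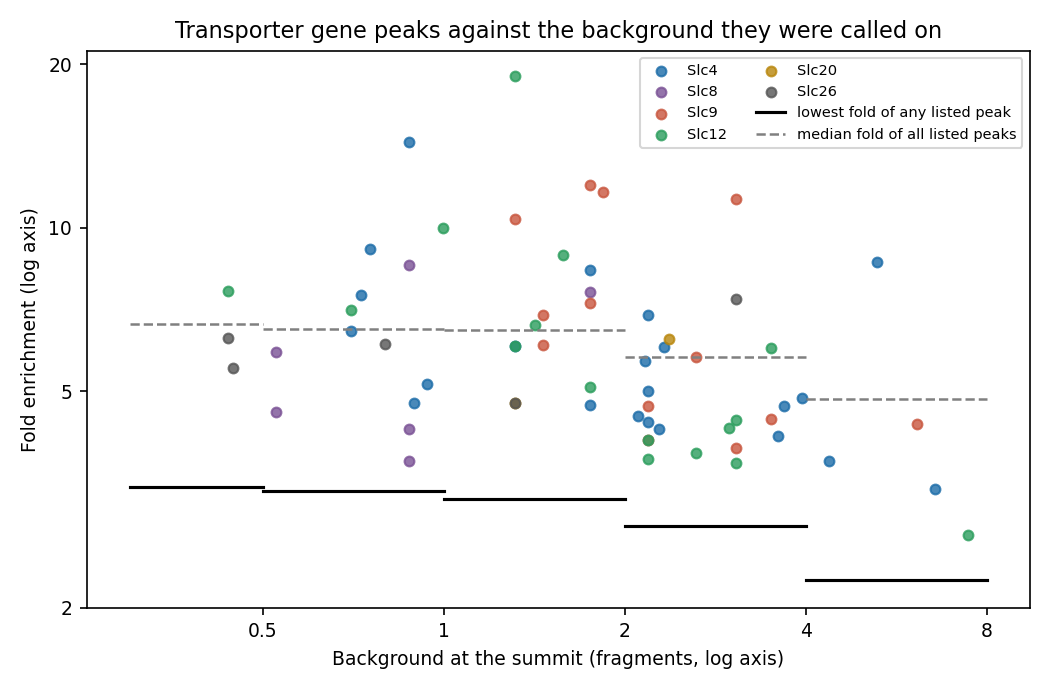
Fold enrichment of the 64 member peaks against the background at the summit, both on log axes. Black lines give the lowest and dashed lines the median fold enrichment of all listed peaks in each class of background, and most member peaks at a background between 2 and 4 lie below the dashed line.

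Genes known to act with these transporters were given as a list of 37. They were chosen for function, but with earlier results of these data known, so their share is not independent support. A peak was held by 20 of them (54.1%, interval 38.4 to 69.0%), with 93 peaks. The share was 31.7% of all autosomal protein-coding genes and 36% of those with a span in the members' range. Neither span nor abundance was matched, and 1 of the 37 genes, Wnk3, lies on the X chromosome. In the WNK cascade, whose kinases phosphorylate Slc12 cotransporters, 5 of 7 genes held a peak, and in the sodium pump, which builds the gradient that all sodium-driven carriers use, 6 of 7 did. Of the epithelial sodium channel genes 2 of 3 held a peak, and of the scaffolds and cofactors 3 of 6. The calcium pumps had 1 of 2, Sgk1 and Nedd4l 1 of 2, carbonic anhydrases 1 of 4 and related exchangers 0 of 4. No interval was computed for these small groups, so none is set apart here.

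The strongest partner was Atp1b1 (chr1:164457746-164458338), a beta subunit of the sodium pump, at 21.7 (16.1 to 28.6). It was followed by the kinase Wnk2 (chr13:49060722-49061669) at 19.8 (13.7 to 27.7) with 12 peaks in all. The plasma membrane calcium pump Atp2b4 (chr1:133800684-133800986) stood at 16.1 (11.5 to 21.8), also with 12 peaks. Nedd4l (chr18:65173885-65174234), a ubiquitin ligase that removes the epithelial sodium channel from the membrane, stood at 12.5 (9.38 to 16.5). Slc9a3r2 (chr17:24647415-24647889), a scaffold that binds sodium-proton exchangers, stood at 11.2 (7.49 to 16.3). The intervals of all 5 overlapped that of the strongest Slc12a2 peak.

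Other partners with a peak included Scnn1a, Scnn1b, Atp1b2, Atp1b3, Fxyd1, Wnk1, Wnk4, Stk39, Oxsr1, Slc9a3r1, Chp1, Car12 and Xpr1. Those without one were Scnn1g, the chloride channel Cftr, Fxyd3, Atp2b1, Wnk3, Cab39, Sgk1, Pdzk1, Chp2, Ahcyl1, Car2, Car4, Car14, Slc8b1, Slc9b1, Slc9b2 and Slc9c1. Of the 4 carbonic anhydrases, which supply bicarbonate, only Car12 held a peak, at 5.56 (2.65 to 10.7). Exchangers related to the members but outside the symbol rule held a peak in 0 of 4 genes. With 31.7% of all autosomal protein-coding genes holding a peak, lists of 4 genes are too small to show a lack of peaks.

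**Figure D5:**
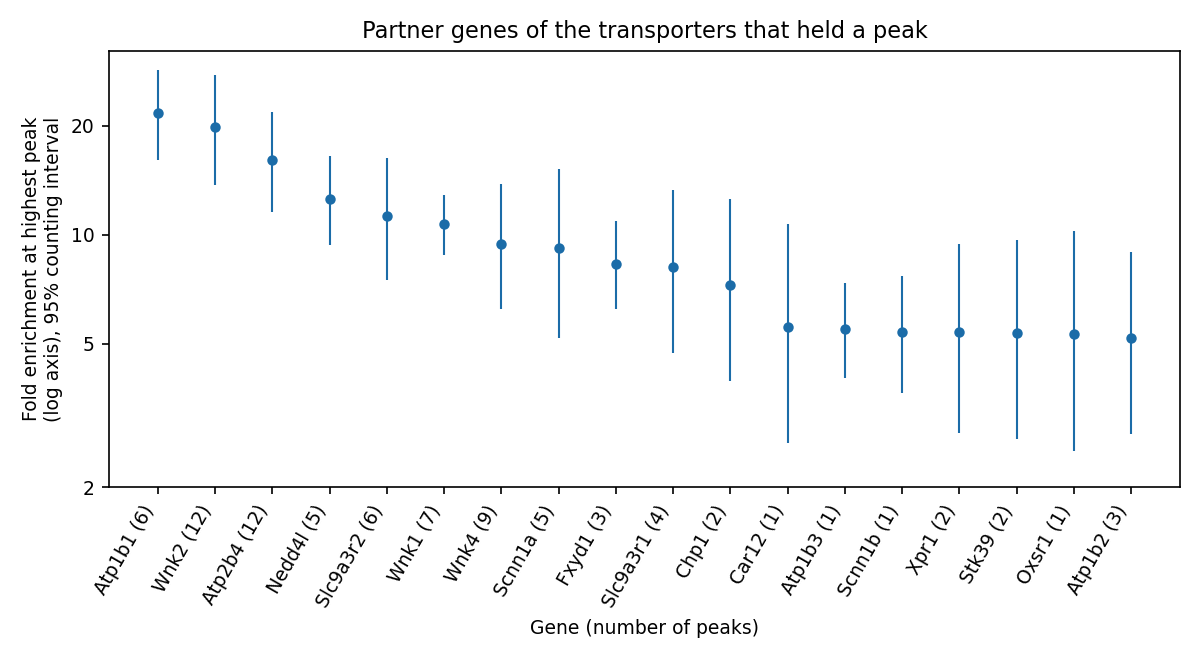
Fold enrichment at the highest peak of the partner genes with a peak that are named in the text, on a log axis with 95% counting intervals, and the number of peaks of each gene in parentheses. Atp1b1 and Wnk2 stand highest, at 21.7 and 19.8.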

How the data were processed

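The deposited data were 1 narrowPeak list for the series, with 1 immunoprecipitation and 1 input library of mouse whole uterus grouped by their titles. HISAT2 2.2.1, MACS3 3.0.0a7 and the build mm10 (GRCm38) are named in the submitters' processing notes, with no parameters. The authors deposited for each peak a fold enrichment (a linear ratio at the summit), a −log10 p-value and −log10 q-value, a score and a summit offset. The largest q was 0.0499. Library totals were not used here, so depth was read from the peaks. The fragment number at each summit was the whole number that matched both fold enrichment and Poisson p within a relative 1e-05, found for 21192 of 21192 peaks. As a check of the arithmetic, fold enrichment and p were computed by the same formulas from 2000 recovered fragment numbers. The search returned 100% of these numbers, which could not test the formulas themselves.

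Peaks were assigned by summit (start plus offset plus 1) to spans of the RefSeq GRCm38.p6 gene table, and a summit in several genes counted for each. Exon positions and a genome sequence were not used here. Strand and promoter sequences came from a RefSeq table. Shares have 95% Wilson intervals and fold enrichments exact Poisson intervals (scipy 1.17.1). Some genes are not reported here by name, though counts include them. Of the other members, the 12 with the greatest highest peak and the 3 with most peaks were chosen for fuller description, and of the partner genes the 5 greatest. For several members with many peaks only the range of values is given. Not every peak has its fragment number or position printed. Members and lists were chosen with earlier results of these data known, and the promoter comparisons after the peaks were seen. Alternatives were a −log10 q of at least 10, a fold enrichment no lower than the list median, summits in 1 coding gene, peaks above the lowest background, any overlap with the span, the median over peaks, a width limit and a distance of 1 kb from the ends.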

Additional observations from a re-analysis of the deposited data

How the results depend on the processing

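With a −log10 q of at least 10, member genes with a peak numbered 8 instead of 16, and their peaks 17 instead of 64, by construction of the filter. All autosomal genes fell alongside, from 31.7 to 18.3%, and the members then stood at 17.8%. Slc12a7, Slc12a9, Slc20a2, Slc26a1, Slc26a11, Slc8a1, Slc9a5 and Slc9a8 were the genes lost. Keeping fold enrichments no lower than the list median, 33 member peaks were left in 13 genes, and partner genes with a peak numbered 13 instead of 20 (35.1%, against 21.2% of autosomal genes). Within 1 kb of either end of the span lay 14.1% of member summits, against 19.9% over autosomal protein-coding genes; in the outermost 10% at either end the shares were 32.8 and 36.3%. Limiting to summits in 1 coding gene removed Slc26a1 and Slc26a10 from the list, and counting any overlap gave 17 genes. The other 22 of 27 values stayed within 1.5 times for counts, 4.52 to 11.5 for the median or the interval for the share. The limits 4.52 and 11.5 are medians, over the genes, of the lower and upper counting limits of the highest peak. They give the counting error of a typical single peak and not an interval of the median, so staying within them says little. The median at the highest peak ran from 5.70 with the median over each gene's peaks to 9.03 with the q filter. The fold enrichments of named genes equalled the reported ones in 83 of 83 values, which says little, since a gene without a peak under a setting gave none. No library could be left out, as each group had 1. No paired analysis was possible because there is 1 library in each group and no test. The member peaks rested on at least 6 fragments each, and a limit set by depth was not computed.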

Other observations

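Slc9a7, a sodium-proton exchanger of the trans-Golgi network, lies on the X chromosome and fell outside the chromosomes examined. It held 1 peak (chrX:20239765-20239979) with a fold enrichment of 4.87 (95% interval 2.23 to 9.78) on 6 fragments over a background of 0.438. This interval overlapped those of the autosomal Slc9a5 and Slc9a8.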
